A study of Homo sapiens with 15 samples.

Results

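Among the genes counted in THP-1 cells, a human line grown from a monocytic leukaemia, 103 long non-coding RNA (lncRNA) genes were abundant, and this abundant set is described here across 5 groups of libraries. They were chosen by their level: the deposited table classes 17722 of its 60286 genes as lncRNA, and a member is any of these with a mean of 20 or more CPM (the count divided by the library total and scaled to 1000000) over the 15 libraries. The 5 microRNA host genes MIR155HG, MIR3142HG, MIR9-3HG, MIR17HG and MIR22HG were to be left out by name, but the highest of their means was 15.8 CPM, so no gene was removed by this. The members just inside the threshold were WAC-AS1 at 20.4, MUC20-OT1 at 20.6 and ENSG00000230551 at 20.7 CPM, and the genes just outside were ENSG00000234311 at 19.8, RIPK2-DT at 19.5 and ENSG00000224152 at 19.4 CPM. Level chose the members and is given as a description, while the comparisons between groups were not part of the rule. The mean covers 12 stimulated and 3 PBS libraries, so a gene that is low in PBS could enter through its level after stimulation.

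Each group had 3 libraries of THP-1 cells. The control group received phosphate-buffered saline (PBS), which the labels call NC, and the others received bacterial extracellular vesicles (BEVs), the small membrane particles that bacteria shed. The EUC and EPL cells had 1 μg/mL of *Escherichia coli* BEVs and the SUC and SPL cells had 10 μg/mL of *Staphylococcus aureus* BEVs, isolated by ultracentrifugation (UC, in EUC and SUC) or by precipitation with ε-poly-L-lysine (PL, in EPL and SPL). Species and dose changed together and cannot be told apart. Incubation lasted 6 hours by the study's methods, while the labels state Day 0, and the labels do not say that the 3 libraries of a group came from separate cultures, so p-values measure the spread between these libraries, which may be technical.

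lncRNAs are transcripts that are not read into long proteins. Some stay in the nucleus, such as NEAT1, the scaffold of paraspeckles, and MALAT1, which sits in nuclear speckles. Others are spliced hosts whose introns carry small nucleolar RNAs (snoRNAs) or whose transcripts carry microRNAs, and still others run antisense to a protein-coding gene or start back to back with it. In monocytes and macrophages several lncRNA genes are switched on by bacterial products, LUCAT1 among them, which is known to restrain interferon and inflammatory gene expression.

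Library totals ran from 14399421 to 16637345 counts. Of 14 markers of monocytic cells, 12 had a mean of at least 1 CPM, and the exceptions were CD68 at 0.0765 and CD86 at 0.548 CPM. The T cell markers CD3D and CD3G and the erythroid markers HBA1 and HBB had 0 counts in every library. At least 1 CPM was reached by 1 of 5 T cell, 1 of 4 B cell, 2 of 3 NK cell, 1 of 4 epithelial and 1 of 4 fibroblast markers. EUC3, SUC3 and EPL1 stood apart: an index, the median log2 deviation of long genes (10000 or more exon bases) from their own means over the libraries minus that of short genes (2000 or fewer), was -0.59, -0.49 and -0.20 in them and between -0.10 and 0.33 in the other 12. Of the members, 33 (32.0%) were lowest of their group in all 3 of these libraries and 28 (27.2%) were highest in all 3, where 20.1% and 21.4% of all genes tested were. Among those described below, MALAT1, NORAD, OIP5-AS1, LUCAT1, SNHG14, XACT, FTX, ENSG00000288851, CHROMR, DLEU2 and MIR4435-2HG were lowest in all 3. GAS5, SNHG29, ENSG00000259865, SNHG6, SNHG15, SNHG1, DENND3-AS1, ENSG00000277969, ENSG00000285906, MIR1915HG, MROCKI, RNASE2CP and MIR142HG were highest in all 3. The part of these libraries in the results was not tested.

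The levels below are CPM on library sizes normalized by TMM (the trimmed mean of M-values of edgeR), and fold changes and adjusted p-values come from the quasi-likelihood test of edgeR, fitted to all 17198 genes with enough counts and adjusted over them by the Benjamini-Hochberg method. All 103 members were among the genes tested. A gene was called differentially expressed (DEG) where it changed by 2-fold or more and its adjusted p did not exceed 0.01. These are bulk libraries, so a change in how many cells carry a transcript and a change in its amount per cell cannot be told apart.

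The members together held 0.637% of all counts with PBS, and between 0.521% and 0.538% in the means of the 4 stimulated groups. A single member, ENSG00000227706, made this difference: it held 0.148% ± 0.00854 (SD, n = 3) of the counts with PBS and a mean of 0.0175% in EUC and 0.0203% in EPL, and 0.0314% in SUC and 0.0286% in SPL. The other 102 held 0.488% ± 0.00231 with PBS and means between 0.503% and 0.514% after stimulation. The libraries of EUC ran from 0.475% to 0.530% on this measure, which includes the PBS values, so the groups overlapped.

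Compared with PBS, 15 members rose and 6 fell in EUC, 14 rose and 5 fell in EPL, 11 rose and 4 fell in SUC, and 13 rose and 5 fell in SPL. Among all genes tested 9.43% rose and 5.75% fell in EUC and 9.38% and 5.15% in EPL, and 6.82% and 3.06% in SUC and 7.76% and 3.70% in SPL. The members' shares of rising genes were 14.6%, 13.6%, 10.7% and 12.6% in that order. Of the 103 members, 11 rose in all 4 comparisons, where 6.33% of the tested genes did, and 4 fell in all 4, where 2.41% did. In at least 1 comparison 15 members rose and 6 fell, against 10.5% and 6.79% of all genes tested.

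The choice of members by their mean level shows in these counts. The PBS mean was under 20 CPM for 15 members, and 9 of these rose in all 4 comparisons. Of the 88 members with a PBS mean of 20 CPM or more, 2 rose in all 4 comparisons (LINC00926 and DENND3-AS1) and 4 fell. Of the 73 members with 20 CPM or more in each of the 5 group means, 2 rose and 2 fell in all 4. Since the mean of the rule includes the stimulated libraries, nothing about abundant lncRNA genes is read from the rising share.

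With the adjusted p alone and no limit on the fold, 27 members were higher and 19 lower in EUC, 29 higher and 20 lower in EPL, 22 higher and 12 lower in SUC, and 25 higher and 15 lower in SPL. Of those higher, 13, 14, 11 and 13 had a PBS mean under 20 CPM. The same rule called 16.5% of all genes higher and 14.0% lower in EUC and 16.0% and 13.2% in EPL, and 12.4% and 9.15% in SUC and 13.3% and 10.6% in SPL. All 12 stimulated libraries stood above all 3 PBS libraries for 31 members and below them for 18, where 17.5% and 16.1% of all genes tested did so, and 12 of the 31 had a PBS mean under 20 CPM. The median log2 fold change of the members was 0.11 in EUC and 0.08 in EPL, and 0.07 in SUC and 0.05 in SPL, while the median of all genes lay between -0.01 and 0.01. Protein-coding genes with a mean of 20 CPM or more had medians of 0.044, 0.020, 0.040 and 0.020 in EUC, EPL, SUC and SPL. The members' medians cover the 15 with a PBS mean under 20 CPM. Nothing is therefore read from their place above the median of all genes, with TMM or without it. Scaled by library totals without TMM, the median of all genes moved to between -0.16 and -0.11. That of the members moved to between -0.06 and -0.05 and so changed sign. On that scale 10 members rose and 10 fell in EUC, and 14 rose and 9 fell in EPL. In SUC 11 rose and 4 fell, and in SPL 11 rose and 7 fell. The share of all genes called on that scale is not given here. Nothing about the members is therefore read from these counts.

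**Figure D1:**
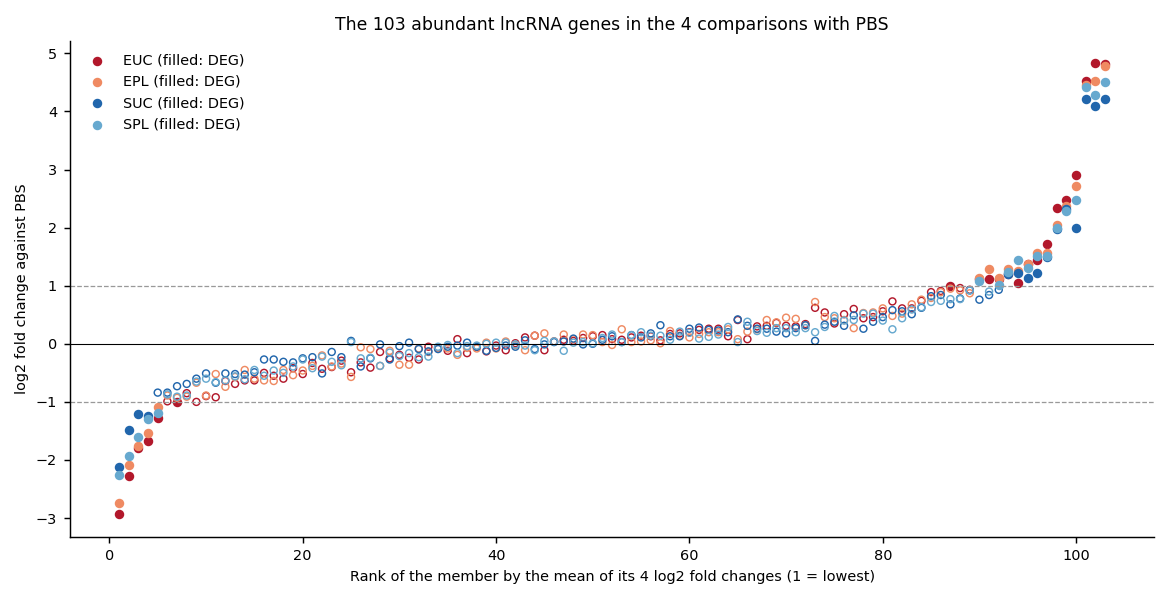
The log2 fold change against PBS (vertical axis) of each of the 103 members, ranked by the mean of its 4 log2 fold changes (horizontal axis), with a colour for each comparison and filled points for DEGs. Dashed lines mark 2-fold. LUCAT1, ENSG00000277969 and MMP2-AS1 stand above 4 at the right end, and ENSG00000227706 lies lowest with a mean of -2.51.

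LUCAT1 (lung cancer associated transcript 1, ENSG00000248323) had the largest mean rise. Its transcripts lie on chromosome 5 from 91054834 to 91314547 on the minus strand of hg38, and its exons share no base with another gene of GENCODE release 44. Its level was 3.90, 3.53 and 4.65 CPM with PBS, 126, 117 and 97.0 with EUC, 93.2, 120 and 119 with EPL, 88.1, 68.7 and 67.8 with SUC and 94.0, 83.7 and 96.2 with SPL. The lowest stimulated library thus stood far above the highest PBS library. The log2 fold change was 4.82 ± 0.165 (SE) in EUC and 4.78 in EPL, and 4.21 in SUC and 4.50 in SPL, or 28.2-fold, 27.5-fold, 18.5-fold and 22.6-fold, with adjusted p of 2.61e-13, 3.02e-13, 2.12e-12 and 8.37e-13 by edgeR.

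MMP2-AS1, which runs antisense to the metalloproteinase gene MMP2 by its name, rose almost as much. It counted 2.18, 1.18 and 1.31 CPM with PBS, 34.3, 34.8 and 38.3 with EUC, 39.4, 34.2 and 27.9 with EPL, 30.1, 27.3 and 29.2 with SUC and 34.5, 32.7 and 33.0 with SPL. The 12 stimulated libraries spanned 27.3 to 39.4 CPM, a narrow range beside the step from PBS. The rise was 23.1-fold in EUC and 21.8-fold in EPL, and 18.6-fold in SUC and 21.6-fold in SPL.

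ENSG00000277969, a lncRNA without a symbol on chromosome 17 (38702449 to 38704747, plus strand), starts 2824 bases from the start of MLLT6, a partner gene of leukaemia translocations, on the same strand. Its values were 1.79, 0.882 and 2.21 CPM with PBS, 38.9, 43.9 and 56.2 with EUC, 42.5, 36.6 and 32.9 with EPL, 26.6, 22.3 and 34.7 with SUC and 29.7, 31.6 and 33.7 with SPL. EUC3 was the highest library. Its fitted log2 fold changes were 4.83 ± 0.245 in EUC and 4.52 in EPL, and 4.10 in SUC and 4.28 in SPL. MLLT6 rose too, from 155 ± 6.30 (SD, n = 3) CPM with PBS to 507 ± 104 in EUC, by 1.71 on the log2 scale (adjusted p = 2.34e-08 by edgeR), so the pair rose by unequal amounts. Of its exon bases, 12.4% are shared with ENSG00000275532 on the opposite strand.

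Promoters are shown for members with large changes in both directions that have an entry in the RefSeq promoter table (GRCh38.p14, from 250 bases before the start to 50 after it), which matched 65 of the 103 members. Capitals mark the AP-1 heptamer TGANTCA, the site of the FOS and JUN factors, which reads the same on both strands and was picked after the values were seen. LUCAT1 (chr5:91314353-91314652, minus strand) and MMP2-AS1 (chr16:55462248-55462547, minus strand) are risers, and MIR1915HG (chr10:21497211-21497510, minus strand) is a faller described further on.
LUCAT1: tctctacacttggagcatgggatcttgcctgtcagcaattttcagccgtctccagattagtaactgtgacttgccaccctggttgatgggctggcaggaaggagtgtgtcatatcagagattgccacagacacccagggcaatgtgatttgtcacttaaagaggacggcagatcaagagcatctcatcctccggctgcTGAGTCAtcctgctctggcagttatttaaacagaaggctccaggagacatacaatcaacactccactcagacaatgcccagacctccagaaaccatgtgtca
MMP2-AS1: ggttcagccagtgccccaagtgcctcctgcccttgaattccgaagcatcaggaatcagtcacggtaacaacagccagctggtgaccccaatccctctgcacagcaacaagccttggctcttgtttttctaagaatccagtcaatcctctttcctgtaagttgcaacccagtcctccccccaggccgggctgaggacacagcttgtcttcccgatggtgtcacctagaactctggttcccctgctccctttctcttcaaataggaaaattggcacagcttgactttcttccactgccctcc
MIR1915HG: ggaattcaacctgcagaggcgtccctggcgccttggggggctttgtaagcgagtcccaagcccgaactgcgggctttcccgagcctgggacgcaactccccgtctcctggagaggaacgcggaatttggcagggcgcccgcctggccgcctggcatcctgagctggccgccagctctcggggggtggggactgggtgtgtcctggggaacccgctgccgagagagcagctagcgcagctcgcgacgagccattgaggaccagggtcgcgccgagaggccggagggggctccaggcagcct
LUCAT1 held a single heptamer, TGAGTCA, whose first base lies 52 bases before the start, and the other sequences shown held none. Over the matched members 4 of 65 (6.15%) held it, the others being LINC00963, GABPB1-AS1 and MIR4435-2HG, none of them a DEG, and 7.76% of all 27305 promoters in the table did.

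The kappa B decamer, the site bound by NF-kappa B, was searched on both strands of the same windows. It was found in 4 of the 65 members (6.15%) and in 5.72% of all promoters. The members were SNHG29 with GGGATATTCC, PSMA3-AS1 with GGAGTGTCCC, SNHG4 with GGGGTTCCCC and DLEU2 with GGGGGTTCCC, and none of them was a DEG. The match of PSMA3-AS1 lies on the opposite strand only, and its letters are given as they stand on the strand of the gene. Of the called members with an entry, 0 of 5 that rose and 0 of 3 that fell had a match, which says only that these letters are absent from these windows.

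ENSG00000260997, an unnamed lncRNA on chromosome 7 (44958999 to 44960909, minus strand), was the fourth in size. It had 5.06, 3.76 and 5.25 CPM with PBS, 39.2, 35.9 and 30.9 with EUC, 34.5, 29.4 and 28.1 with EPL, 21.0, 18.0 and 16.9 with SUC and 24.3, 28.0 and 26.1 with SPL. The SUC libraries were the lowest of the stimulated ones, and did not overlap those of any other stimulated group. The rise was 7.54-fold in EUC and 6.54-fold in EPL, and 3.97-fold in SUC and 5.57-fold in SPL.

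MSC-AS1, antisense to MSC (musculin, a repressor of the helix-loop-helix family), held 10.0, 9.94 and 8.76 CPM with PBS, 49.6, 53.3 and 56.4 with EUC, 47.6, 53.7 and 47.9 with EPL, 48.6, 47.3 and 47.5 with SUC and 47.6, 44.9 and 46.9 with SPL. It rose 5.54-fold in EUC and 5.19-fold in EPL, and 4.98-fold in SUC and 4.85-fold in SPL, a similar size in each. MSC itself went from 19.6 ± 1.17 CPM with PBS to 227 ± 53.6 in EUC. Both genes share 468 exon bases on opposite strands, and the strand setting of the counting is not given, so reads of the pair cannot be fully separated.

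PRKAR1B-AS1 was counted at 5.50, 7.00 and 6.74 CPM with PBS, 29.9, 31.6 and 35.8 with EUC, 25.9, 24.9 and 28.7 with EPL, 24.6, 25.7 and 25.8 with SUC and 23.2, 29.6 and 24.2 with SPL. Its rise was 5.04-fold in EUC and between 3.95-fold and 4.12-fold in the others. The nearest protein-coding start belongs to PDGFA, a growth factor, 82496 bases away, and PDGFA went from 5.24 ± 0.865 CPM with PBS to 61.0 ± 9.28 in EUC (adjusted p = 4.52e-12 by edgeR).

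ENSG00000285906, without a symbol, stood at 8.57, 9.47 and 8.58 CPM with PBS, 25.4, 26.8 and 34.8 with EUC, 29.0, 24.7 and 24.7 with EPL, 23.4, 23.1 and 28.3 with SUC and 25.4, 23.6 and 27.3 with SPL. It rose between 2.80-fold and 3.26-fold. SLC39A13-AS1, listed by its identifier ENSG00000255197 in the table and antisense to the zinc transporter gene SLC39A13, stood at 18.7, 18.7 and 15.2 CPM with PBS, 54.6, 49.7 and 40.0 with EUC, 52.0, 53.7 and 50.6 with EPL, 44.7, 41.9 and 36.5 with SUC and 51.7, 47.9 and 50.3 with SPL. Its rise was between 2.34-fold and 2.97-fold, and neither gene had a stimulated library within the PBS range.

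LINC00926 was the most abundant riser, the only gene that was both among the 10 highest members and a DEG upward. On chromosome 15 (57300365 to 57307769, plus strand) it has no exon base in common with another gene, and it counted 74.3, 73.9 and 72.4 CPM with PBS, 194, 195 and 184 with EUC, 224, 184 and 165 with EPL, 168, 157 and 156 with SUC and 180, 180 and 182 with SPL. Its PBS libraries spread by 0.973 CPM (SD, n = 3). It rose 2.60-fold in EUC (log2 fold change 1.38 ± 0.0933, SE), 2.60-fold in EPL, 2.18-fold in SUC and 2.46-fold in SPL.

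LINC01547 starts 84 bases from SLX9 and runs the other way. Its values were 9.73, 10.1 and 10.0 CPM with PBS, 22.7, 22.2 and 16.2 with EUC, 25.8, 25.1 and 20.4 with EPL, 24.8, 24.7 and 20.1 with SUC and 28.1, 26.5 and 26.7 with SPL. It rose 2.05-fold in EUC and 2.39-fold in EPL, and 2.34-fold in SUC and 2.73-fold in SPL, while SLX9 had a log2 fold change of 0.08 in EUC (adjusted p = 0.720 by edgeR). The call in EUC was near the limit: without EUC1 the log2 fold change was 0.95 and without EUC2 it was 0.97, both under 2-fold.

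DENND3-AS1 also rose in all 4 comparisons, and is named after its values were seen because the rule for named genes stopped at 10. It went from 22.8 ± 0.335 (SD, n = 3) CPM with PBS to 52.2 ± 5.98 in EUC and 52.7 ± 2.29 in SUC. Another 4 risers were DEGs in some comparisons only, and they too were picked after their values were seen. MBNL1-AS1 and SLC9A3-AS1 were called in EUC, EPL and SPL, with 0.93 and 0.76 on the log2 scale in SUC. CHROMR, known as a regulator of cholesterol handling, was called in EUC and EPL, with 0.84 in SUC and 0.90 in SPL. ENSG00000288851 was called in EUC and with 0.95 in EPL, and 0.68 in SUC and 0.77 in SPL. Whether these differed between the stimulated groups was tested separately, and the adjusted p missed the limit for all of them. Several of these calls were near the 2-fold limit. MBNL1-AS1 was not a DEG in SPL without PBS1 or PBS3, and SLC9A3-AS1 not in EPL without EPL1. ENSG00000288851 was not a DEG in EUC without PBS1, PBS3, EUC1 or EUC2. Their log2 fold changes fell to 0.95, 0.96 and 0.91 at the lowest. Their adjusted p stayed at or under 0.000173 by edgeR. On library totals CHROMR (0.97), MBNL1-AS1 (0.96), SLC9A3-AS1 (0.95) and ENSG00000288851 (0.85) were under 2-fold in EUC, as were MBNL1-AS1 (0.90) and SLC9A3-AS1 (0.97) in SPL. All 318 exon bases of ENSG00000288851 lie over exons of C6orf62 on the opposite strand, and C6orf62 rose from 72.9 ± 4.37 to 186 ± 27.3 CPM in EUC, so its count may hold reads of that gene.

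**Figure D2:**
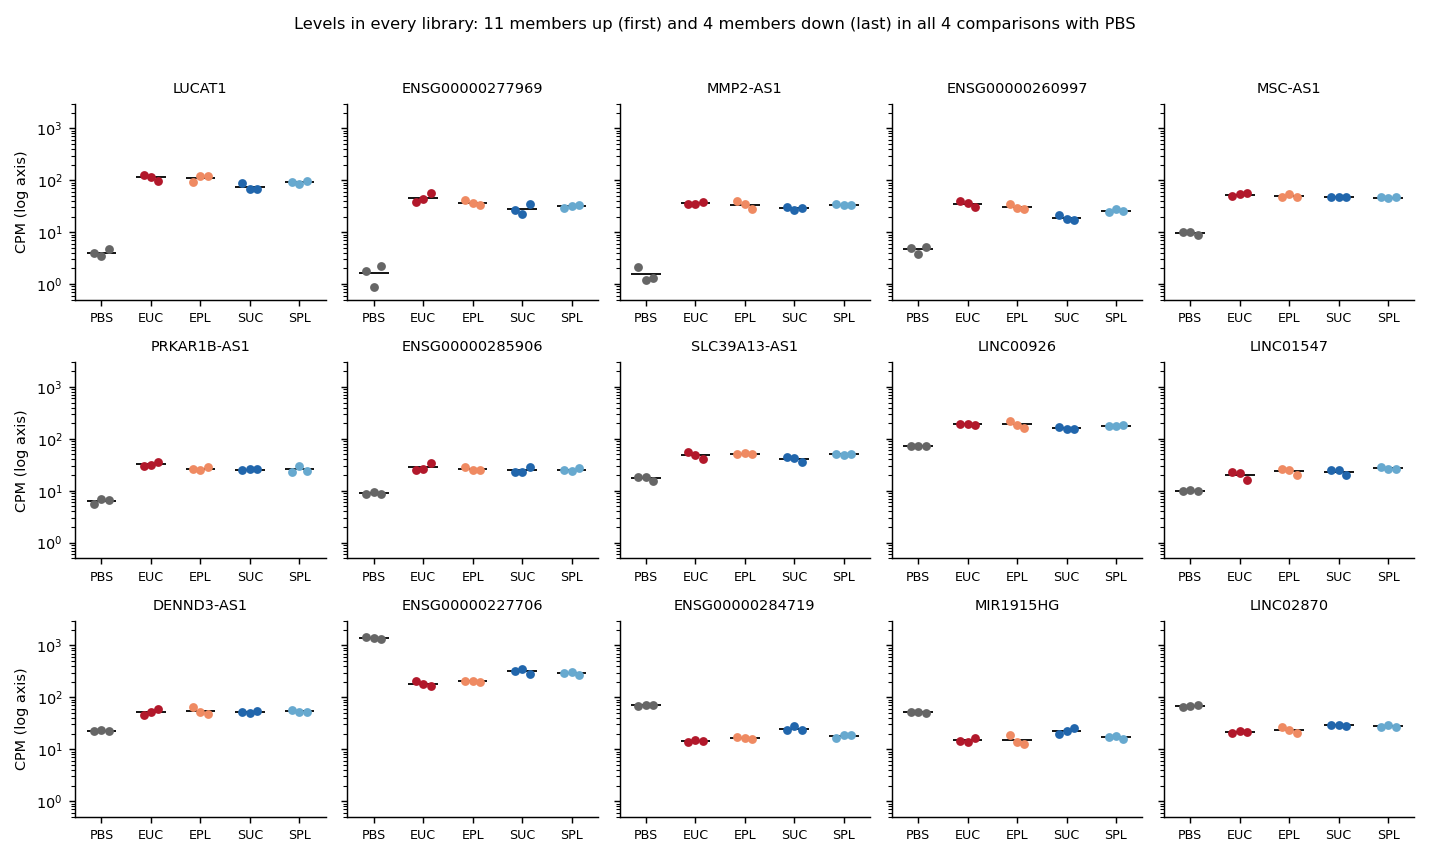
CPM (log axis) in each of the 3 libraries of each group, as points with a line at the mean, for the 11 members that rose and the 4 that fell in all 4 comparisons with PBS. In each panel the 3 PBS points lie apart from the 12 stimulated points.

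ENSG00000227706 was the most abundant member and the one that fell most. It lies on chromosome 6 (67878316 to 67889339, minus strand), a region whose nearest protein-coding start, that of ADGRB3, is 745943 bases away, and it has no symbol in the table or in GENCODE release 44. It counted 1444, 1378 and 1318 CPM with PBS, 204, 177 and 163 with EUC, 210, 211 and 199 with EPL, 319, 352 and 283 with SUC and 291, 304 and 270 with SPL. The loss was 7.60-fold in EUC and 6.69-fold in EPL, and 4.34-fold in SUC and 4.79-fold in SPL, with adjusted p of 2.74e-13, 6.51e-13, 1.99e-11 and 8.08e-12 by edgeR. Per kilobase of exon it held 254 CPM with PBS, above every other member. In EUC it held 33.4, below several members, among them LINC01388 (137), ENSG00000259865 (93.1) and ENSG00000288851 (52.6 CPM over 318 exon bases).

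ENSG00000284719 fell next. It had 69.2, 70.1 and 71.7 CPM with PBS, 13.7, 15.4 and 14.3 with EUC, 17.2, 16.3 and 16.0 with EPL, 23.8, 28.1 and 23.3 with SUC and 16.7, 19.2 and 18.9 with SPL. The loss was 4.86-fold in EUC and 4.26-fold in EPL, and 2.80-fold in SUC and 3.85-fold in SPL. It starts 10554 bases from BMP8B, a bone morphogenetic protein gene on the opposite strand, which fell from 616 ± 19.9 CPM with PBS to 76.3 ± 7.53 in EUC (log2 fold change -3.01, adjusted p = 1.69e-13 by edgeR).

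MIR1915HG, host of miR-1915, was counted at 51.1, 53.2 and 50.9 CPM with PBS, 14.4, 13.9 and 16.3 with EUC, 19.2, 13.8 and 12.9 with EPL, 19.7, 22.1 and 25.3 with SUC and 17.2, 17.9 and 15.8 with SPL. It fell 3.48-fold in EUC and 3.39-fold in EPL, and 2.31-fold in SUC and 3.04-fold in SPL. LINC02870, also on chromosome 10, had 66.5, 67.2 and 70.3 CPM with PBS, 20.9, 22.0 and 21.2 with EUC, 26.5, 23.1 and 20.7 with EPL, 29.6, 29.4 and 27.5 with SUC and 26.7, 29.4 and 27.3 with SPL. It fell 3.18-fold in EUC and 2.90-fold in EPL, and 2.36-fold in SUC and 2.44-fold in SPL, and neither gene shares an exon base with another.

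XACT and RNASE2CP fell in fewer comparisons and were picked after their values were seen. XACT, known for coating the active X chromosome in pluripotent cells, was called in EUC (-1.27 ± 0.266), EPL (-1.08) and SPL (-1.19), with -0.84 in SUC. Its libraries varied widely: 81.9, 70.9 and 77.6 CPM with PBS, 48.8, 26.5 and 20.1 in EUC and 23.6, 33.3 and 51.9 in EPL. EUC3 and EPL1, which have low long-gene indices, were the lowest of their groups, and XACT is by far the longest member, with 347964 exon bases. Without EUC3, EPL1 and SUC3 the log2 fold change was -1.03 in EUC and -0.84 in EPL, where it was no longer a DEG. In EPL the call was also lost without EPL2, PBS1 or PBS3, and in SPL without SPL2 or SPL3. The part of the index in this result was not tested. RNASE2CP, a pseudogene that the table classes as lncRNA, was a DEG in EUC, with log2 values between -0.93 and -0.73 in the others, and was not a DEG in EUC without PBS3, EUC1 or EUC2.

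The 10 highest members by mean CPM included several that moved less. MALAT1 was counted at 293, 298 and 284 CPM with PBS, 505, 389 and 309 with EUC, 338, 439 and 498 with EPL, 389, 418 and 328 with SUC and 429, 425 and 402 with SPL. All stimulated libraries were above PBS, but the spread in EUC (98.6 CPM, SD) was wide, and the adjusted p passed in EPL alone (0.54 ± 0.153, adjusted p = 0.00876 by edgeR, but up to 0.0612 without PBS1, PBS2, PBS3, EPL2 or EPL3 and 0.0576 on library totals), with 0.46 in EUC, 0.38 in SUC and 0.52 in SPL. Without EUC3, EPL1 and SUC3, its lowest libraries in those groups, the adjusted p passed in all 4 comparisons (at most 1.88e-05, with log2 fold changes of 0.61, 0.69, 0.48 and 0.53), and by DESeq2 it also passed in SPL (0.00491). An antisense transcript, TALAM1, covers 77.8% of its exon bases on the other strand in GENCODE release 44.

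NEAT1 had 180, 189 and 192 CPM with PBS, 370, 290 and 277 with EUC, 299, 297 and 355 with EPL, 290, 289 and 284 with SUC and 312, 265 and 290 with SPL. It was higher in all 4 groups by the adjusted p, 1.67-fold in EUC and 1.69-fold in EPL, and 1.54-fold in SUC and 1.54-fold in SPL, short of the 2-fold limit. ENSG00000259865, on chromosome 1, showed 62.3, 59.6 and 63.6 CPM with PBS, 89.0, 111 and 149 with EUC, 136, 105 and 103 with EPL, 100, 103 and 130 with SUC and 106, 90.7 and 113 with SPL. Its rise of 1.88-fold in EUC and 1.67-fold to 1.85-fold in the others also stayed under 2-fold, and without EUC1 its log2 fold change in EUC was 1.07 and made it a DEG. The adjusted p in SPL was 0.0105 without SPL3. Its highest libraries in EUC, EPL and SUC were the 3 that stand apart, and their part in this result was not tested.

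OIP5-AS1, which pairs with miR-7, moved the other way. Its levels were 159, 156 and 155 CPM with PBS, 114, 107 and 89.6 with EUC, 97.4, 113 and 133 with EPL, 125, 129 and 125 with SUC and 112, 104 and 115 with SPL. The adjusted p passed in EUC (1.51-fold lower), EPL (1.37-fold lower) and SPL (1.42-fold lower), and was 0.0314 in SUC (1.24-fold lower). Without EPL2 the adjusted p in EPL was 0.0101. Without EUC3, EPL1 and SUC3, its lowest libraries in those groups, it was 0.00139 in SUC (log2 fold change -0.30), and so passed in all 4.

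NORAD, a cytoplasmic RNA that binds PUMILIO proteins, stood at 180, 174 and 166 CPM with PBS, 216, 226 and 198 with EUC, 165, 214 and 240 with EPL, 206, 218 and 197 with SUC and 198, 196 and 212 with SPL. Its log2 fold changes of 0.22 to 0.30 missed the limit, the smallest adjusted p being 0.0329 by edgeR. EUC3, EPL1 and SUC3 were its lowest libraries in those groups. Every stimulated library but EPL1 stood above all PBS libraries, so a lack of change is not read from this. SNHG29 had 118, 121 and 124 CPM with PBS, 88.6, 107 and 122 with EUC, 101, 91.8 and 90.3 with EPL, 106, 118 and 128 with SUC and 102, 109 and 102 with SPL. It passed in EPL alone, with -0.36 ± 0.103 (adjusted p = 0.00994 by edgeR, but up to 0.0419 without PBS1, PBS2, PBS3, EPL2 or EPL3). Without EUC3, EPL1 and SUC3, its highest libraries in those groups, it also passed in EUC (-0.31, adjusted p = 0.00114), and on library totals in EUC (0.00234) and SPL (0.00607).

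GAS5, a snoRNA host whose spliced RNA is degraded during translation, had 134, 140 and 148 CPM with PBS, 124, 143 and 189 with EUC, 143, 123 and 124 with EPL, 128, 139 and 173 with SUC and 134, 143 and 136 with SPL. The highest libraries were EUC3 and SUC3. Its log2 fold changes lay between -0.11 and 0.11, with signs that changed when EUC3 or SUC3 was left out, and no direction is given. FGD5-AS1 stayed near its PBS level, at 132, 128 and 130 CPM with PBS, 129, 137 and 135 with EUC, 121, 135 and 144 with EPL, 138, 132 and 128 with SUC and 135, 128 and 136 with SPL. The 95% interval of its log2 fold change was -0.12 to 0.20 in EUC and -0.12 to 0.19 in EPL, and -0.13 to 0.19 in SUC and -0.12 to 0.19 in SPL, and on library totals the values were -0.12 in EUC and -0.09 in EPL, and -0.09 in SUC and -0.08 in SPL.

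Such narrow intervals were found for 36 of the 103 members, whose 95% interval stayed within 1.5-fold in all 4 comparisons. Among all genes tested 26.8% met this, among protein-coding genes with a mean of 20 CPM or more 50.7%, and among lncRNA genes under the threshold 2.04%. NORAD, GAS5, FGD5-AS1, SNHG29, SNHG1, SNHG3 and PVT1 were among the 36.

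Among the 14 snoRNA hosts (GAS5 and the SNHG genes 1, 3, 4, 6, 7, 8, 12, 14, 15, 16, 17, 29 and 32), 0 were DEGs in any comparison with PBS, where 3.06% to 9.43% of all genes tested were called in each direction. In a list of 14 nothing is read from this count, and the same holds for the shorter lists of members and proteins below. Their median log2 fold change was 0.12 in EUC and -0.04 in EPL, and 0.07 in SUC and 0.00 in SPL. By the adjusted p alone 1 was higher and 2 lower in EUC, and 2 were lower in EPL, among them SNHG29. SNHG15 was higher in EUC (0.60, adjusted p = 0.00452 by edgeR) and SNHG14, host of the Prader-Willi region snoRNAs, was lower (-0.69, adjusted p = 0.00364). The first was over 0.01 without PBS1, PBS2, PBS3, EUC2 or EUC3 and the second without PBS1, PBS2, EUC2 or EUC3. By annotation XACT and TMEM161B-DT also hold a snoRNA, and TMEM161B-DT was not a DEG.

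The summed level of the hosts was highest where the long-gene index was lowest, in EUC3 (-0.59) and SUC3 (-0.49). It was 1111 CPM in EUC3 and 1077 in SUC3, while the other 13 libraries ran from 773 to 941, and the PBS mean was 912 ± 31.2 (SD, n = 3). Not every host followed this, as SNHG14 was the lowest of its group in EUC3, EPL1 and SUC3. SNHG6 was at 79.5, 104 and 155 CPM in EUC and 97.4, 109 and 134 in SUC, with EUC3 and SUC3 on top. Leaving out EUC3, EPL1 and SUC3 lowered the value of SNHG15 in EUC from 0.60 to 0.39, that of SNHG14 in size from -0.69 to -0.53, and that of SNHG6 in EUC from 0.41 to 0.11. Without these 3 libraries the adjusted p of SNHG14 and that of SNHG15 also passed in SUC (0.000629 and 0.00411) and SPL (1.04e-06 and 9.05e-05), and that of SNHG14 in EPL (0.000435). The part of the index in these values was not tested.

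Of the proteins that bind snoRNAs, 9 were tested (among them the methyltransferase fibrillarin, FBL, and the pseudouridine synthase dyskerin, DKC1) and 0 were DEGs. FBL had log2 fold changes of -0.24, -0.40, -0.11 and -0.26 in EUC, EPL, SUC and SPL, with a smallest adjusted p of 0.0420 by edgeR. By the adjusted p alone NOLC1 was lower in EUC (-0.34), EPL (-0.37) and SPL (-0.29) and SNU13 in EPL (-0.48), and 0 were higher. Of 9 factors of RNA decay, XRN1, the cytoplasmic exonuclease, rose in EUC (1.07) and EPL (1.19), with 0.77 in SUC and 0.91 in SPL, and the other 8 were not DEGs. UPF1, the helicase of nonsense-mediated decay, ranged from -0.20 to -0.10.

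Of 12 genes listed as nuclear body or nuclear-retained lncRNA genes, 5 were members and 0 of these were DEGs. The members were MALAT1, NEAT1, OIP5-AS1, FTX and PVT1, and where their RNA lies in these cells was not measured. They are too few to set against the 3.06% to 9.43% of all genes tested that were called in each direction. FTX, a gene of the X-inactivation centre, had group means of 26.6 CPM with PBS and 51.8, 50.3, 45.9 and 45.5 in EUC, EPL, SUC and SPL, and was higher in all 4 by the adjusted p (0.96, 0.92, 0.78 and 0.77). PVT1 lay between -0.27 and -0.12. Among 11 paraspeckle proteins, the partners of NEAT1, 0 were DEGs, and NONO and SFPQ, the core pair, had log2 fold changes of -0.02 and 0.24 in EUC, while SMARCA4 was at -0.44.

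Of 21 genes listed as reported in innate immune responses, 7 were members. LUCAT1 was the only DEG among them, where 3.06% to 9.43% of all genes tested were called in each direction. Its PBS mean was 4.03 CPM, so it became a member through its stimulated libraries. Nothing is read from its call in this list. MALAT1 and NEAT1 are also on this list. MIR4435-2HG had log2 fold changes of 0.31, 0.45, 0.18 and 0.27, of which that in EPL passed by the adjusted p (0.00927 by edgeR, up to 0.0458 without PBS2, PBS3, EPL2 or EPL3) and that in EUC only without EUC3, EPL1 and SUC3 (0.43, adjusted p = 0.000463), and has a near-identical copy, CYTOR, with which its reads could be exchanged. MIR142HG was at -0.55, -0.64, -0.27 and -0.46, with adjusted p between 0.0207 and 0.348.

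**Figure D3:**
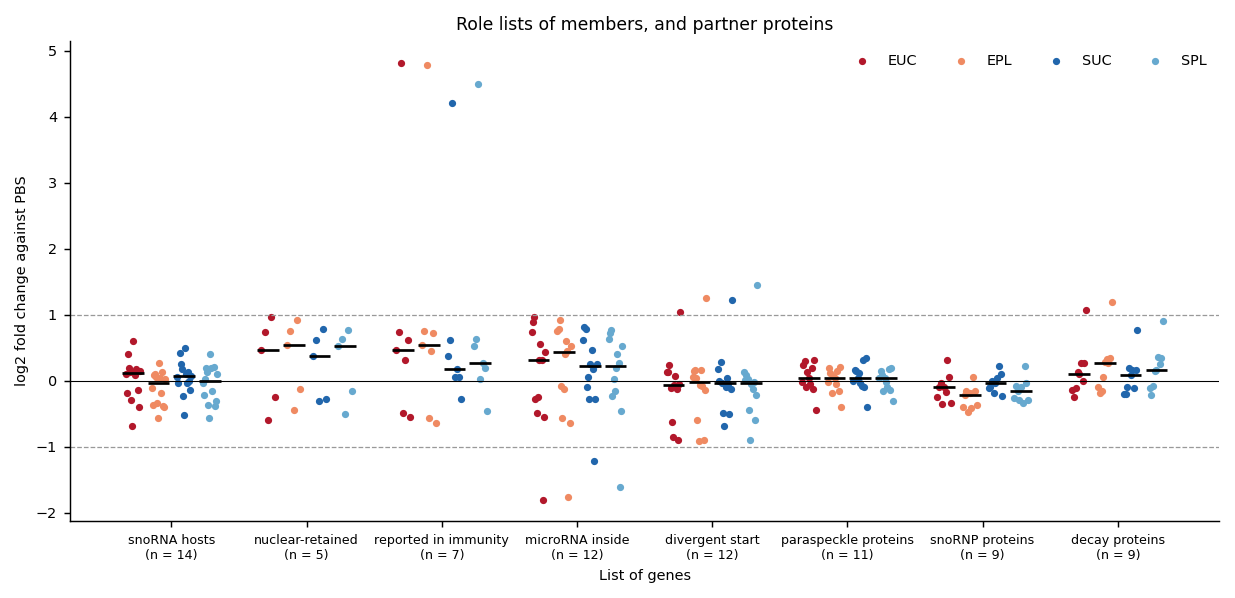
The log2 fold change against PBS of every gene of 5 lists of members and 3 lists of partner proteins, as points coloured by comparison, with the median as a black line. LUCAT1 stands alone above 4 among the immune genes, MIR1915HG lies lowest among the members with a microRNA inside, and the 14 snoRNA hosts stay between -0.69 and 0.60.

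A microRNA hairpin lies inside 12 members, and 1 of them, MIR1915HG, was a DEG, where 3.06% to 9.43% of all genes tested were called in each direction. These libraries count the long host RNA, and say nothing of the level of the mature microRNA. For 10 of these members 37 mature microRNAs were taken from the RefSeq table. The main products of the hosts described here are shown 5′ to 3′ with the seed, bases 2 to 8, which pairs with target messages, in capitals.
hsa-miR-1915-3p: cCCCAGGGcgacgcggcggg
hsa-miR-223-3p: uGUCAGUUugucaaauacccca
hsa-miR-142-3p: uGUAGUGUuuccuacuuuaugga
hsa-miR-23a-3p: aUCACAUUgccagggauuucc
hsa-miR-27a-3p: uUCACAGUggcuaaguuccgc
hsa-miR-24-3p: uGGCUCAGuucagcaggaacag
hsa-let-7a-5p: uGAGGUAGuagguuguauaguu
hsa-let-7b-5p: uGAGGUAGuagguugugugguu
hsa-miR-15a-5p: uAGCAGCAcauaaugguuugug
hsa-miR-16-5p: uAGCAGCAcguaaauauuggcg
The let-7a and let-7b products of MIRLET7BHG share the seed GAGGUAG, and the miR-15a and miR-16 products of DLEU2 share AGCAGCA. MIR23AHG, host of miR-23a, miR-27a and miR-24, was higher in all 4 groups by the adjusted p (0.89, 0.79, 0.82 and 0.72), as was DLEU2 (0.56, 0.61, 0.46 and 0.40), whose adjusted p was over 0.01 in SUC without PBS1 or SUC2 and in SPL without any of the 6 libraries compared, and on library totals in EUC (0.0115), SUC (0.0361) and SPL (0.0761). MIRLET7BHG had values of 0.31, 0.41, 0.26 and 0.19.

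Divergent starts were found for 12 members, which begin within 1000 bases of a protein-coding gene and run the other way. LINC01547 was the only DEG among them with TMM, where 3.06% to 9.43% of all genes tested were called in each direction. Its PBS mean was 9.93 CPM, so it became a member through its stimulated libraries. In so short a list nothing is read from this count. In examples picked after their values were seen, the neighbour changed more than the member. SLC3A2, the heavy chain of amino acid transporters, starts 51 bases from SNHG1 and went from 256 ± 11.3 to 549 ± 92.0 CPM in EUC (log2 fold change 1.10), where SNHG1 was at 0.13. BAIAP2 starts 241 bases from BAIAP2-DT and had 1.19 in EUC, where BAIAP2-DT was at 0.13. SATB1-AS1 and TMCC1-DT, on the same list, were lower in all 4 groups by the adjusted p, SATB1-AS1 by -0.85, -0.91, -0.69 and -0.89 and TMCC1-DT by -0.90, -0.89, -0.51 and -0.60. For TMCC1-DT in SUC the adjusted p was over 0.01 without PBS1, PBS2, SUC2 or SUC3.

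Over all orientations, 40 members start within 5000 bases of the nearest protein-coding gene, and this neighbour was tested for 38. In at least 1 comparison, 10.5% of all genes tested rose and 6.79% fell. With so few pairs the counts that follow are a description, and nothing about pairs is read from them. Among the 38, 4 had a member that was a DEG in at least 1 comparison and 9 had a neighbour that was. In 3 of the 4 the neighbour was called in the same direction: ENSG00000277969 with MLLT6, SLC39A13-AS1 with SLC39A13 and ENSG00000288851 with C6orf62, the fourth being LINC01547. GATA2-AS1 was lower with GATA2, a haematopoietic transcription factor, -0.99 and -1.37 in EUC, both passing by the adjusted p. GATA2-AS1 was a DEG in EUC without PBS2, PBS3, EUC1 or EUC2 and on library totals (-1.15), and in EPL on library totals (-1.01), so no difference in call between the pair is drawn. Genes that overlap on opposite strands may share reads, since the strand setting is not given.

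**Figure D4:**
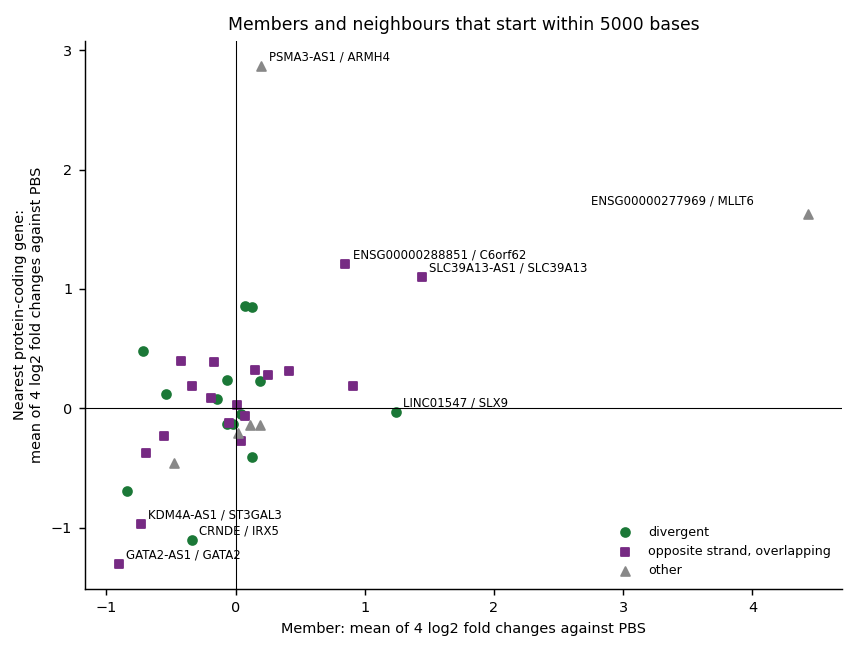
The mean of the 4 log2 fold changes against PBS of the nearest protein-coding gene (vertical axis) against that of the member (horizontal axis), for the 38 pairs whose starts lie within 5000 bases, with the shape giving the orientation. ENSG00000277969 and MLLT6 lie far to the right, and ARMH4, IRX5 and GATA2 moved more than the members beside them.

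The isolation methods were compared within each species. Of the 103 members, 0 were DEGs between EPL and EUC and 0 between SPL and SUC, where 0% and 0.00581% of all genes tested were called. The smallest adjusted p among members was 0.947 in EPL against EUC and 0.523 in SPL against SUC, both by edgeR, and DESeq2 called 0 in both. At an unadjusted p under 0.05 there were 4 and 10 members, and 604 and 1000 of all genes. The largest difference in size was 0.40 on the log2 scale in the first and 0.49 in the second, the latter for ENSG00000260997, with means of 18.6 CPM in SUC and 26.1 in SPL. The smallest adjusted p of the second was that of ENSG00000284719, at -0.46, with 25.1 CPM in SUC and 18.3 in SPL. The difference between methods was also compared between the species, with 0 members called, a smallest adjusted p of 0.460, 6 members and 659 of all genes at an unadjusted p under 0.05 and 0 called by DESeq2.

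Between the species, 0 members were DEGs, against 0.663% of all genes higher and 0.0233% lower with *E. coli* BEVs, and DESeq2 also called 0. By the adjusted p alone 3 members were higher and 4 lower with *E. coli* BEVs, where 2.87% and 1.00% of all genes were, and 25 members and 2920 of all 17198 genes had an unadjusted p under 0.05. The dose was 1 μg/mL for *E. coli* and 10 μg/mL for *S. aureus* BEVs. Of these 7 members, 5 were also called against PBS in all 4 comparisons, and all 5 lay farther from PBS with *E. coli* than with *S. aureus* BEVs.

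The remaining pair, MIR223HG and MROCKI, moved with *E. coli* BEVs and stayed near PBS with *S. aureus* BEVs. MIR223HG, host of the myeloid microRNA miR-223, had 47.2, 45.1 and 48.5 CPM with PBS, 27.3, 34.7 and 38.0 with EUC, 36.6, 29.2 and 28.8 with EPL, 43.5, 52.7 and 49.9 with SUC and 43.7, 48.9 and 51.0 with SPL. The SUC and SPL libraries overlapped those of PBS, and those of EUC and EPL lay below all of them. Its log2 fold change was -0.49 in EUC and -0.57 in EPL (adjusted p = 0.00379 and 0.00124 by edgeR, the first over 0.01 without PBS1, PBS3, EUC1 or EUC2), with 95% intervals of -0.20 to 0.31 in SUC and -0.23 to 0.29 in SPL. The difference between species was -0.57 ± 0.0875 (adjusted p = 0.000388).

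MROCKI, a lncRNA named for its regulation of MARCKS, had 16.7, 21.0 and 15.7 CPM with PBS, 25.9, 28.1 and 28.3 with EUC, 31.6, 27.3 and 29.0 with EPL, 18.1, 18.0 and 19.4 with SUC and 19.8, 18.9 and 22.5 with SPL. The EUC and EPL libraries lay above all others. Its log2 fold change was 0.62 in EUC and 0.72 in EPL, with 95% intervals of -0.19 to 0.30 in SUC and -0.04 to 0.44 in SPL, and the difference between species was 0.55 ± 0.0791 (adjusted p = 0.000259 by edgeR). MARCKS itself was a DEG upward with BEVs of either species. Its PBS mean of 18.6 CPM became 349 (EUC) and 314 (EPL) after *E. coli* BEVs. After *S. aureus* BEVs, where MROCKI stayed near PBS, MARCKS reached 183 (SUC) and 205 (SPL), or 3.30 and 3.46 on the log2 scale. A link between MROCKI and MARCKS in these cells was not tested.

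Among the DEGs, ENSG00000227706 was 1.56-fold lower with *E. coli* than with *S. aureus* BEVs (log2 difference -0.65 ± 0.0670, adjusted p = 1.07e-05 by edgeR), and ENSG00000284719 was 1.39-fold lower. LINC02870 was 1.27-fold lower, with an adjusted p of 0.00327 that became 0.0141 without SPL2. ENSG00000260997 was 1.49-fold higher and LUCAT1 1.36-fold higher. The adjusted p of LUCAT1, 0.00537, was over 0.01 when any of 9 libraries was left out (up to 0.0261 by edgeR) and 0.0196 on library totals, with a log2 difference that stayed between 0.39 and 0.50.

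**Figure D5:**
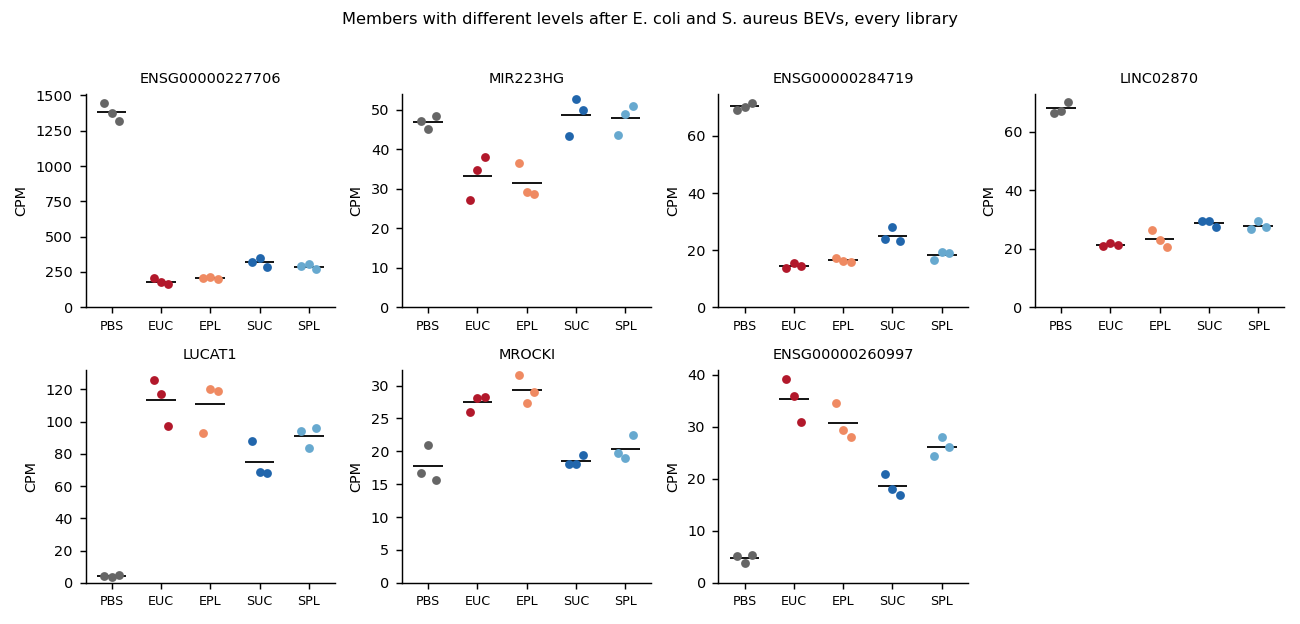
CPM in every library for the 7 members whose adjusted p passed between *E. coli* and *S. aureus* BEVs, as points with a line at the group mean and axes from 0. The EUC and EPL points of MIR223HG lie below and those of MROCKI above the points of PBS, SUC and SPL.

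The 19 members that have no symbol in either source gave 4 DEGs upward in EUC and 3 in each other comparison, and 2 downward in each, where 9.43% of all genes rose and 5.75% fell in EUC. In each comparison 3 of those upward had a PBS mean under 20 CPM.

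By annotation, 102 of the members were found in GENCODE release 44 on hg38, all but ENSG00000288884. Exon bases were shared with another gene by 69 members and with none by 33, and 12 shared over 20% of their exon bases. For 44 members the overlap was with an exon of a protein-coding gene on the opposite strand. The table names 26 members by identifier alone, of which GENCODE release 44 gives a symbol to 7. Restricted to the 33 members that share no exon base, 9 rose in each of the 4 comparisons, and 3 fell in EUC and 2 in each of the others. Of the 9 rising, 7 had a PBS mean under 20 CPM in each comparison, and 6.82% to 9.43% of all genes tested rose.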

How the data were processed

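RNA of THP-1 cells was measured in 15 libraries, 3 in each of 5 groups taken from the sample labels. Per the labels and the study's methods, the authors extracted total RNA, prepared paired-end libraries of 150 bases with a NEBNext Ultra kit, checked them with FastQC 0.11.5 and aligned them to hg38 with HISAT2 2.1.0. The submitters' notes also name StringTie 1.3.3b, featureCounts and DESeq 1.28.0. The sources used here do not give the strand setting, the annotation release or whether poly-A selection or depletion was used. Without a strand setting, reads of a gene and of its antisense partner cannot be told apart.

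The authors deposited counts, whole numbers of reads per gene that were not normalized, for 60286 genes, of which 23219 had none in any library. All sample columns were used. Totals ran from 14399421 to 16637345 with a median of 15831655, so a count of 20 CPM rests on about the same number of reads in each library.

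Members are lncRNA genes with a mean of 20 CPM or more on column totals. The members, the gene lists and the tests were chosen with earlier results of these data known. Counts were tested in R 4.3.3 with the quasi-likelihood F-test of edgeR 4.0.16 (filterByExpr, TMM, 1 mean per group, all 15 libraries), with Benjamini-Hochberg adjustment over 17198 genes. The common biological coefficient of variation was 0.118. A DEG changed by 2-fold or more with an adjusted p not above 0.01, limits taken from the study's methods. SE is the fold change divided by the square root of F, and intervals are 95% by the t distribution of the model. The test script was tested on simulated data. Positions and overlaps are from GENCODE release 44 on GRCh38, and promoters and microRNAs from RefSeq tables of GRCh38.p14.

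Values in every library were given for the 10 highest members, for members that were DEGs in all 4 comparisons with PBS (up to 10 in each direction by the mean log2 fold change) and for DEGs between methods or species (none found). DENND3-AS1, members called in fewer comparisons, the 7 members that differ between species by adjusted p alone, the neighbours named and the AP-1 motif were picked after their values were seen.

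Replicate numbers are shared by the groups. The correlation of same-numbered libraries' deviations from their group means ran from -0.452 to 0.525 over 30 pairs, of which 7 were over 0.1. Over 60 pairs of different number it ran from -0.484 to 0.488, and 12 were over 0.1. The numbers thus showed no pairing by this check, which cannot exclude it, since 3 libraries stand apart. No block was used in the main tests. Alternatives were DESeq2 1.42.0, other scalings and filters, each library left out in turn, the replicate block, other member thresholds, no limit on the fold, members that share no exon base and, chosen after seeing the data, scaling on library totals, scaling without the highest member and leaving out the 3 libraries that stand apart.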

Additional observations from a re-analysis of the deposited data

Results flagged for a closer look

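The difference between *E. coli* and *S. aureus* BEVs passed by the adjusted p of edgeR for 7 members, by a test of the difference itself, and none of them reached 2-fold. The log2 difference (*E. coli* minus *S. aureus*) was -0.65 for ENSG00000227706, -0.57 for MIR223HG, -0.47 for ENSG00000284719 and -0.34 for LINC02870. It was 0.44 for LUCAT1, 0.55 for MROCKI and 0.58 for ENSG00000260997. The difference passed with every library left out in turn, on library totals and by DESeq2 for 5 of these, LUCAT1 and LINC02870 being the exceptions. Species and dose changed together in these libraries and cannot be told apart.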

How the results depend on the processing

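Without a limit on the fold, 27 members were higher and 19 lower in EUC, 29 and 20 in EPL, 22 and 12 in SUC, 25 and 15 in SPL, and 3 and 4 with *E. coli* against *S. aureus* BEVs. On library totals, 10 fell in EUC and 9 in EPL, and nothing is read from this without the share of all genes on that scale. Among the 33 members that share no exon base, 9 rose and 3 fell in EUC, 9 rose and 2 fell in EPL, and 2 fell in SUC and in SPL. A mean of 10 CPM or more gave 204 members and a mean of 50 or more gave 26. With 1 library left out, 13 to 15 members rose and 6 to 8 fell in EUC, 14 to 15 and 4 to 5 in EPL, 11 to 12 and 4 in SUC, and 12 to 13 and 4 to 5 in SPL. With the replicate block, 14 rose and 6 fell in EUC, 14 and 5 in EPL, 11 and 4 in SUC, and 13 and 5 in SPL. By DESeq2, 15 rose and 5 fell in EUC, with the counts of the other comparisons as in edgeR. The next counts cover 22 members, the 10 highest and those called in all 4 comparisons with PBS (up to 10 in each direction). Of 1232 alternatives over their 88 fold changes, 1214 kept their direction and their side of the threshold. Another 14 changed direction, all in members near 0, for which the cause was not tested. Many of the 22 were chosen by their calls, so nothing is read from these counts about members called in fewer comparisons. An adjusted p that crossed 0.01 at a change under 2-fold, as for MALAT1 and SNHG29 in EPL, was not counted as a change. GAS5 ran from -0.08 to 0.24 in EUC and from -0.07 to 0.16 in SUC with 1 library left out, FGD5-AS1 from -0.03 to 0.10 in EPL and SNHG29 from -0.11 to 0.03 in SUC. GAS5 was at -0.06 in EUC and in SUC on library totals, at -0.08 in EUC without EUC3 or without the 3 libraries that stand apart, at -0.07 in SUC without SUC3 or without those 3, and at 0.01 without PBS3 and 0.00 without SPL1 in SPL. FGD5-AS1 was at -0.12, -0.09, -0.09 and -0.08 in EUC, EPL, SUC and SPL on library totals and at -0.03 in EPL without EPL3. SNHG29 was at 0.03 in SUC without SUC1. LINC01547 in EUC was at 0.88 on library totals. Intervals cover the spread between libraries, and members near 20 CPM have the fewest reads.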
